A study of Mus musculus with 12 samples.

Results

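The 34 genes described here, apart from Hmces, encode proteins of the Fanconi anaemia pathway and of homologous recombination. They include Brip1, the mouse gene for the knocked-out helicase FANCJ. Hmces, also in the list, encodes a protein that shields abasic sites in DNA. All 34 were chosen by name from a count table of 32285 mouse genes, and every one of the 34 had a row in it. After the filter on low counts 33 of them were tested among 12765 genes, and the nuclease gene Fan1 was not. RNA was sequenced from 12 libraries of mouse embryonic stem cells, 3 for each of 4 genotypes: the double KO of DHX36 and FANCJ (DHX36/FANCJ KO in the labels), the DHX36 KO, the FANCJ KO and WT. All cells were of the IB10 line, taken from 129/Ola mice, and grew on gelatin in serum, leukaemia inhibitory factor and medium conditioned by Buffalo rat liver cells; the labels name no feeder cells. No group was treated, and none of the libraries came from cells given a crosslinking agent or another source of damage. How many clones stand behind a knockout, and which part of either gene was removed, are not given in the sources used here.

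The Fanconi anaemia pathway removes covalent links between the strands of DNA that block replication forks. A core complex of Fanconi proteins acts as a ubiquitin ligase on the paired proteins FANCD2 and FANCI, nucleases then cut beside the link, and the resulting break is mended by homologous recombination. In recombination the break ends are resected, BRCA1, PALB2 and BRCA2 act as mediators on the single strand, and the products of Rad51b, Rad51c, Rad51d, Xrcc2 and Xrcc3 and of the RAD54 genes act with them. FANCJ is a DNA helicase that binds BRCA1, and like the DEAH-box helicase DHX36 it unwinds G-quadruplexes, folded structures of guanine-rich nucleic acid. Embryonic stem cells divide fast, spend much of their cycle in S phase and lean on recombination for repair.

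Libraries held 4284785 to 14721931 counts. Every double KO library and every DHX36 KO library was deeper than every WT library, so low genes had less counting error in those genotypes. The 34 genes took 0.0648% to 0.0819% of a library's counts. Levels are given as CPM, counts scaled to a common normalised library total, and differences as log2 fold changes with their standard error (SE). A gene is called where edgeR's quasi-likelihood test gave a p-value under 0.05 after Benjamini-Hochberg adjustment over all genes tested. The labels do not say whether replicate libraries were grown as separate cultures, so the p-values reflect only how much these samples vary, and that variation may be technical. In these bulk samples, fewer cells of a type and less RNA per cell cannot be told apart.

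The targeted genes followed their labels. Dhx36 averaged 13.9 ± 1.54 CPM in the double KO and 10.5 ± 1.45 CPM in the DHX36 KO, against 55.6 ± 3.57 CPM in the FANCJ KO and 54.1 ± 3.79 CPM in WT (SD, n = 3 each). Brip1 (ENSMUSG00000034329, minus strand of chr11:86058138-86201193 in GRCm38) had 11, 4 and 2 counts in the double KO libraries and 1, 2 and 3 in the FANCJ KO libraries. It had 58, 47 and 75 counts in the DHX36 KO libraries and 31, 38 and 30 in the WT libraries, so the groups with and without FANCJ were far apart in every library. Its level was 0.414 ± 0.295 CPM in the double KO, 0.338 ± 0.253 CPM in the FANCJ KO, 6.93 ± 0.486 CPM in the DHX36 KO and 6.87 ± 0.154 CPM in WT. The log2 fold change of Brip1 was -4.45 (SE 0.45, adjusted p = 4.11e-06) in the FANCJ KO against WT and -3.94 (SE 0.34, adjusted p = 4.73e-08) in the double KO against the DHX36 KO. Loss of DHX36 left Brip1 close to WT, with a log2 fold change of 0.01 (SE 0.26, adjusted p = 0.985) in the DHX36 KO. Because Brip1 was the target, it is left out of the counts of members below, which then cover 32 tested genes.

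Since both helicases act on G-quadruplexes, the promoters of the members were read for runs of G. RefSeq windows from 250 bases before to 50 bases after the annotated start (GRCm38.p6) matched 26 of the 34 members by symbol. The motif searched was 4 runs of at least 3 G on either strand, with loops of 1 to 7 bases of any kind between them. It was found in 2 members (7.69%), Brip1 and Rad51c, against 5525 of 27025 gene symbols (20.4%). With loops of 1 to 12 bases it was found in 8 members (30.8%), namely Brip1, Fancb, Fance, Brca1, Brca2, Rad51c, Xrcc3 and Hmces, against 8330 gene symbols (30.8%). The stretches below, from RefSeq and in the direction of the gene, are shown for both members with short loops and for Hmces and Brca1, whose levels are described further on, with the runs in capitals and position 0 as the first transcribed base. The motifs of Brip1 and Rad51c have short loops and lie at -181 to -160 and at -17 to 0. Their printed stretches, with flanking bases, cover chr11:86201338-86201389 and chr11:87404506-87404538 on the minus strand. The start used for this Rad51c match lies inside the gene interval chr11:87376645-87404954. A second window, at the outer end of that interval, held a match with longer loops only. The motifs of Hmces and Brca1 have a longer loop and lie at -52 to -23 and at -56 to -26. Their stretches cover chr6:87913909-87913968 on the plus strand and chr11:101551966-101552026 on the minus strand. The start used for Hmces lies inside its gene interval, which begins at chr6:87913935. The runs of Brca1 are C in this direction and G on the other strand. In Brca1 the long unbroken stretch of C holds 2 of the runs and the loop between them, so those capitals include a loop.
Brip1: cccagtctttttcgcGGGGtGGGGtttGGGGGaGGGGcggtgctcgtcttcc
Rad51c: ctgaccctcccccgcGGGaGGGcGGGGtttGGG
Hmces: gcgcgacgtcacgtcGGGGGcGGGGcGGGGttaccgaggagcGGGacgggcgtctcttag
Brca1: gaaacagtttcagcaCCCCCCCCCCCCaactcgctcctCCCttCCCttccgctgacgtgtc
A match describes the letters only, and no folding or binding was measured.

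The members called in the double KO against WT belonged to several roles, and their share was below that of all genes. Of the 32 members, 8 were called (25.0%), against 33.9% of all genes tested. Rbbp8 and Rad54b were higher, and Fancf, Fancl, Ercc1, Eme1, Brca1 and Hmces were lower, where 16.6% of all genes were called higher and 17.3% lower. In the DHX36 KO against WT, 4 members were called (12.5%), against 24.4% of all genes: Fancd2 and Rbbp8 were higher, and Fancl and Brca1 were lower, where 12.8% of all genes were called higher and 11.6% lower. In the FANCJ KO against WT, Hmces alone was called among the 32 (3.13%), against 2.07% of all genes, and it was lower, as were 0.619% of all genes, while 1.45% were higher. The median log2 fold change of the 32 members was -0.12 in the double KO, -0.11 in the DHX36 KO and -0.07 in the FANCJ KO, where that of all genes lay within 0.01 of 0.

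Counted without a threshold on p, 12 of the 32 members had no overlap between the 3 double KO and the 3 WT libraries, 3 of them higher and 9 lower, against 45.2% of all genes. For the DHX36 KO the count was 9, with 3 higher and 6 lower, against 37.6% of all genes. For the FANCJ KO it was 8, with 1 higher and 7 lower, against 18.7% of all genes. The 95% interval of a member's log2 fold change against WT had a median half-width of 0.32 in the double KO, 0.33 in the DHX36 KO and 0.34 in the FANCJ KO. Smaller changes would often be missed in these data. The intervals are not adjusted for the number of genes tested, so larger changes could be missed as well. In the FANCJ KO, Fancf at -0.74 and Rbbp8 at 0.49 were not called.

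**Figure D1:**
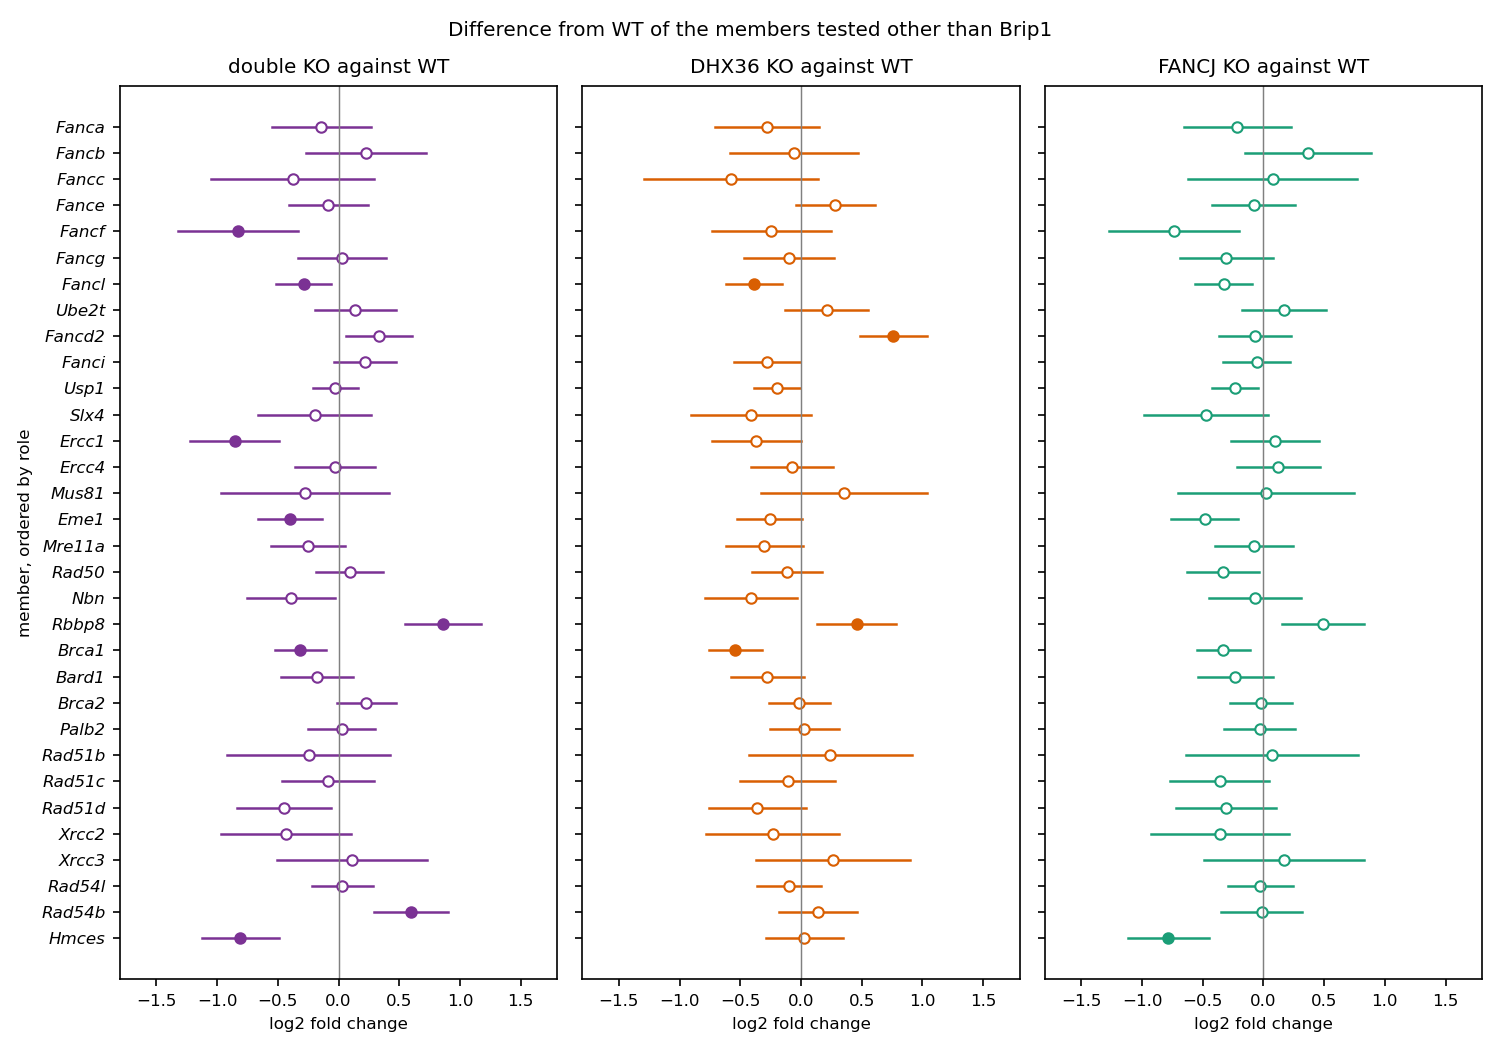
Log2 fold change of each of the 32 members other than Brip1 in the double KO, the DHX36 KO and the FANCJ KO against WT, with the members down the page by role, bars for the 95% interval and filled points for called members. Rbbp8 lies at 0.86 in the double KO, Fancd2 at 0.76 in the DHX36 KO and Hmces at -0.78 in the FANCJ KO, while the genes from Rad51b to Xrcc3 have open points in all panels.

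**Figure D2:**
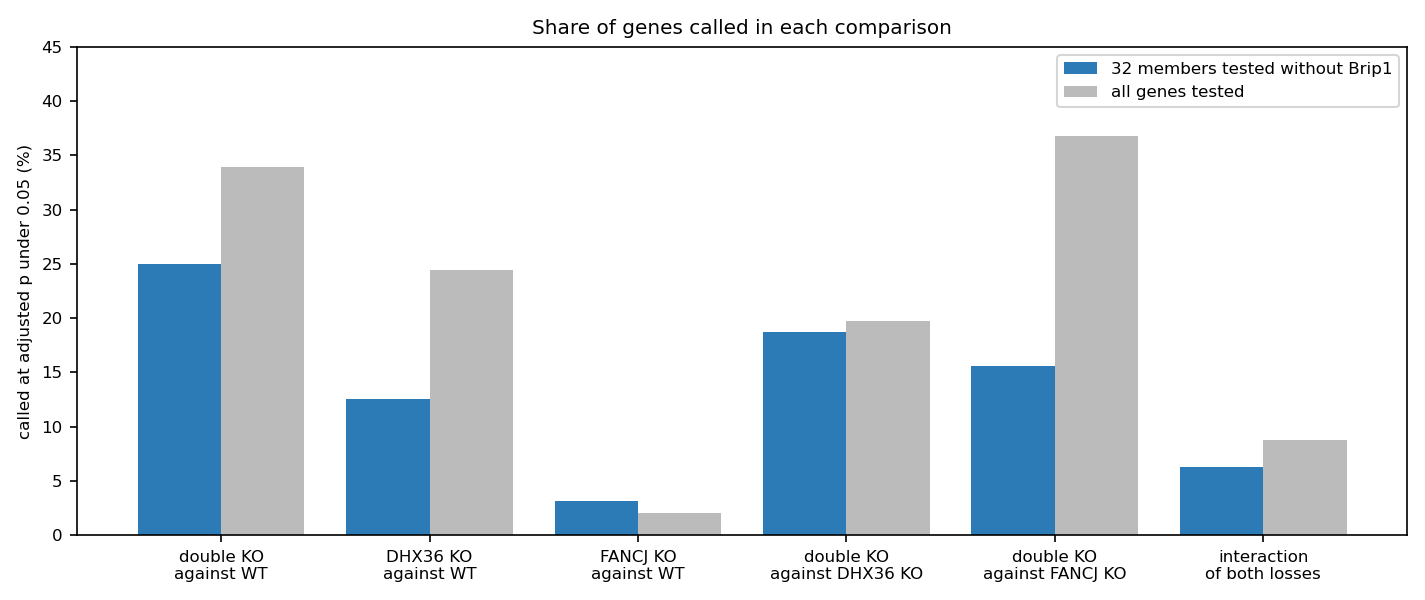
Share of genes called in each of the 6 comparisons, in percent, for the 32 members without Brip1 (blue) and for all genes tested (grey). The share of members is below that of all genes in every comparison other than the FANCJ KO against WT, where it is 3.13% against 2.07%.

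Of the core complex and its E2 enzyme, 2 of 8 transcripts were called in the double KO against WT, both lower, where 33.9% of all genes were called and 17.3% were lower. These were Fancf and Fancl. Only Fancl was called in the DHX36 KO, where 24.4% of all genes were called and 11.6% were lower. None was called in the FANCJ KO by edgeR or DESeq2, where edgeR called 2.07% of all genes. In that comparison 2 of the 8 had an unadjusted p under 0.05. Fancf (ENSMUSG00000092118, minus strand of chr7:51860577-51862267), which encodes an adaptor that holds the complex together, stood at 4.60, 4.23 and 8.19 CPM in the double KO and 8.0, 8.05 and 9.06 CPM in the DHX36 KO. The FANCJ KO libraries held 5.93, 5.05 and 7.22 CPM and the WT libraries 7.53, 12.2 and 9.84 CPM. The FANCJ KO libraries were all below the WT libraries, while 1 double KO library lay within the WT range. Its log2 fold change was -0.83 (SE 0.24, adjusted p = 0.0102) in the double KO and -0.74 (SE 0.26, adjusted p = 0.157) in the FANCJ KO. The call in the double KO was lost without WT replicate 2 (-0.63, adjusted p = 0.101), double KO replicate 1 (adjusted p = 0.0521) or double KO replicate 2 (adjusted p = 0.0549). Against the DHX36 KO its log2 fold change was -0.59 (adjusted p = 0.0713), without double KO replicate 3, the highest of the 3, it was -0.92 (adjusted p = 0.00509), and without the expression filter it was -0.58 (adjusted p = 0.0336).

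Fancl (ENSMUSG00000004018, plus strand of chr11:26386135-26471876) encodes the subunit that carries the ligase activity. It stood at 32.6, 32.8 and 31.8 CPM in the double KO and 29.6, 29.2 and 31.7 CPM in the DHX36 KO. It was at 29.4, 29.5 and 36.5 CPM in the FANCJ KO and at 42.1, 39.8 and 36.8 CPM in WT. Every knockout library was below every WT library. It fell by 0.39 on the log2 scale in the DHX36 KO (SE 0.11, adjusted p = 0.0133) and by 0.29 in the double KO (SE 0.11, adjusted p = 0.0431), and its log2 fold change in the FANCJ KO was -0.33 (SE 0.11, adjusted p = 0.152). Without WT replicate 1 the adjusted p was 0.0527 in the DHX36 KO, and the call in the double KO was lost without WT replicate 1 or 2 or any 1 of the double KO libraries, with adjusted p of 0.0851 to 0.144, and with DESeq2 (adjusted p = 0.0543), without the expression filter (adjusted p = 0.125) and with libraries thinned to equal depth (adjusted p = 0.111). Vrk2, a kinase gene that overlaps the 3′ end of Fancl on the other strand, had a log2 fold change of -0.35 (adjusted p = 0.242) in the DHX36 KO and -0.07 (adjusted p = 0.813) in the double KO. Whether counting used strand is not given in the sources used here, and without strand the reads of such a pair cannot be told apart.

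The other core complex genes and Ube2t, which encodes the E2 enzyme that works with FANCL, were not called in any of the comparisons. Fanca, Fancb, Fancc, Fance, Fancg and Ube2t had log2 fold changes against WT between -0.57, for Fancc in the DHX36 KO, and 0.37, for Fancb in the FANCJ KO. Zfp276, which overlaps the 3′ end of Fanca on the other strand, was not called in any comparison either. Fancc stood at 2.91, 3.59 and 3.12 CPM in the double KO and 3.99, 3.89 and 4.68 CPM in WT, without overlap, and its log2 fold change there was -0.38 (adjusted p = 0.391).

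The FANCD2 and FANCI transcripts, whose products form 1 clamp on DNA, moved in opposite directions between the double KO and the DHX36 KO. Fancd2 (ENSMUSG00000034023, plus strand of chr6:113531682-113597017) stood at 18.5, 23.1 and 21.7 CPM in the double KO and 28.7, 27.3 and 29.0 CPM in the DHX36 KO. FANCJ KO libraries stood at 17.3, 14.9 and 15.7 CPM, against 15.5, 18.6 and 15.9 CPM in WT. All DHX36 KO libraries were above all libraries of the other genotypes. Fancd2 was 1.69-fold higher in the DHX36 KO than in WT, a log2 fold change of 0.76 (SE 0.13, adjusted p = 0.000189). In the double KO its log2 fold change was 0.40 against the FANCJ KO (SE 0.13, adjusted p = 0.0160), 0.33 against WT (SE 0.13, adjusted p = 0.0556) and -0.43 against the DHX36 KO (SE 0.12, adjusted p = 0.0111). The call against the FANCJ KO was lost without FANCJ KO replicate 2 (adjusted p = 0.0777) or double KO replicate 2 (adjusted p = 0.0778), and that against the DHX36 KO without double KO replicate 1 (adjusted p = 0.0803) and at equal depth (adjusted p = 0.146). The difference from WT in the double KO was called without WT replicate 2 (adjusted p = 0.0430) or without double KO replicate 1 (adjusted p = 0.0277). Fancd2os, a gene on the other strand at the 3′ end of Fancd2, was at 0.414 CPM in the double KO, 0.760 CPM in the DHX36 KO, 0.541 CPM in the FANCJ KO and 0.858 CPM in WT.

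Fanci (ENSMUSG00000039187, plus strand of chr7:79391929-79450264) stood at 39.8, 34.2 and 43.1 CPM in the double KO and 28.7, 24.3 and 29.3 CPM in the DHX36 KO. Its level was 32.5, 33.2 and 30.7 CPM in the FANCJ KO and 39.9, 29.9 and 31.1 CPM in WT. The double KO and DHX36 KO libraries did not overlap, and the mean of either differed from that of WT by less than the range of the WT libraries. Fanci was higher in the double KO than in the DHX36 KO, with a log2 fold change of 0.50 (SE 0.12, adjusted p = 0.00461), and its differences from WT were 0.22 in the double KO (adjusted p = 0.186), -0.28 in the DHX36 KO (adjusted p = 0.123) and -0.06 in the FANCJ KO. Without WT replicate 1 it was called in the double KO against WT (0.36, adjusted p = 0.0479), and without double KO replicate 2 in the double KO against the FANCJ KO (0.36, adjusted p = 0.0382). Against the DHX36 KO the log2 fold change of the neighbouring Polg, which overlaps its 3′ end on the other strand, was 0.17 (adjusted p = 0.273) in the double KO.

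Usp1 (ENSMUSG00000028560, plus strand of chr4:98923810-98935543), the gene of the enzyme that strips ubiquitin from FANCD2, stood at 98.5, 102 and 102 CPM in the double KO and 98.7, 88.4 and 82.1 CPM in the DHX36 KO. The FANCJ KO libraries held 88.7, 86.8 and 86.6 CPM and the WT libraries 111, 93.2 and 105 CPM. All FANCJ KO libraries were below all WT libraries, and the double KO lay inside the WT range. None of its differences from WT was called, at -0.03 in the double KO (adjusted p = 0.851), -0.20 in the DHX36 KO (adjusted p = 0.122) and -0.23 in the FANCJ KO (adjusted p = 0.221), though without DHX36 KO replicate 1 the DHX36 KO was called (-0.28, adjusted p = 0.0445).

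Among the nucleases and their scaffold, 2 of the 5 tested genes were called in the double KO against WT, both lower, where 33.9% of all genes were called and 17.3% were lower. Ercc1 (ENSMUSG00000003549, plus strand of chr7:19344778-19356524) encodes the partner of the XPF nuclease, which unhooks crosslinks. It stood at 7.10, 7.18 and 8.28 CPM in the double KO and 9.56, 10.4 and 11.5 CPM in the DHX36 KO. It was at 12.4, 16.9 and 14.2 CPM in the FANCJ KO and at 16.8, 12.7 and 11.2 CPM in WT. The double KO libraries were below all others. Ercc1 was 1.81-fold lower in the double KO than in WT (log2 fold change -0.86, SE 0.18, adjusted p = 0.000662) and 1.93-fold lower than in the FANCJ KO (-0.95, SE 0.17, adjusted p = 0.000107). Against the DHX36 KO the log2 fold change was -0.49 (SE 0.17, adjusted p = 0.0441), a call lost without DHX36 KO replicate 2 or 3 or any 1 of the double KO libraries, with adjusted p of 0.0510 to 0.171, with DESeq2 (adjusted p = 0.0672), without the filter (adjusted p = 0.0516) and at equal depth (adjusted p = 0.191). Cd3eap, which overlaps the 3′ end of Ercc1 on the other strand, had log2 fold changes of 0.08 (adjusted p = 0.734) in the double KO against WT and 0.20 (adjusted p = 0.301) against the FANCJ KO.

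Eme1 (ENSMUSG00000039055, minus strand of chr11:94644996-94653964), whose product pairs with the MUS81 nuclease, stood at 24.2, 24.9 and 21.2 CPM in the double KO and 30.1, 24.8 and 22.8 CPM in the DHX36 KO. FANCJ KO libraries stood at 21.3, 22.6 and 22.7 CPM, against 27.5, 33.2 and 32.1 CPM in WT. The double KO and FANCJ KO libraries were all below the WT libraries, and the DHX36 KO overlapped them. Its log2 fold change was -0.40 (SE 0.13, adjusted p = 0.0169) in the double KO, -0.26 (adjusted p = 0.151) in the DHX36 KO and -0.48 (SE 0.13, adjusted p = 0.0641) in the FANCJ KO. The call was lost without WT replicate 2 (adjusted p = 0.0855) or double KO replicate 3 (adjusted p = 0.0703), and without DHX36 KO replicate 1 the DHX36 KO was called as well (-0.40, adjusted p = 0.0426). Lrrc59, which overlaps the 3′ end of Eme1 on the other strand and was at 114 to 145 CPM in the group means, had log2 fold changes of -0.21 (adjusted p = 0.0819) in the double KO and -0.35 (adjusted p = 0.00737) in the DHX36 KO.

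Mus81 itself, Ercc4, which encodes XPF, and Slx4, the scaffold that gathers these nucleases, were not called in any comparison. Mus81 had log2 fold changes of -0.28 in the double KO, 0.35 in the DHX36 KO and 0.02 in the FANCJ KO. Efemp2 overlaps the 3′ end of Mus81 on the other strand. Its log2 fold changes were -1.05 (adjusted p = 0.00830) in the double KO, -0.89 (adjusted p = 0.0349) in the DHX36 KO and -0.06 (adjusted p = 0.957) in the FANCJ KO. Ercc4 lay between -0.07 and 0.12 against WT on the log2 scale in the 3 knockout genotypes. Slx4 had log2 fold changes of -0.20 in the double KO, -0.41 in the DHX36 KO and -0.47 in the FANCJ KO, with adjusted p of 0.221 or more. Fan1, the nuclease gene below the filter, had 20, 7 and 13 counts in the double KO, 1, 4 and 7 in the DHX36 KO, 2, 4 and 1 in the FANCJ KO and 6, 1 and 1 in WT, on library totals that also differed.

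In end resection Rbbp8 was the 1 member of 4 called against WT, higher in the double KO, where 16.6% of all genes were higher, and in the DHX36 KO, where 12.8% were. Rbbp8 (ENSMUSG00000041238) encodes CtIP, which starts resection together with the MRE11, RAD50 and NBN proteins. It stood at 26.6, 28.1 and 18.9 CPM in the double KO and 17.2, 18.8 and 19.9 CPM in the DHX36 KO. Its level was 18.9, 19.3 and 19.0 CPM in the FANCJ KO and 13.9, 13.4 and 13.3 CPM in WT. Every knockout library was above every WT library. Rbbp8 was 1.81-fold higher in the double KO than in WT (log2 fold change 0.86, SE 0.15, adjusted p = 0.000136), and its log2 fold change was 0.46 in the DHX36 KO (SE 0.16, adjusted p = 0.0380) and 0.49 in the FANCJ KO (SE 0.16, adjusted p = 0.131). The double KO was also above the DHX36 KO (0.40, SE 0.13, adjusted p = 0.0387) and the FANCJ KO (0.37, SE 0.14, adjusted p = 0.0402). The call in the DHX36 KO was lost without DHX36 KO replicate 2 or 3 or any 1 of the WT libraries, with adjusted p of 0.0718 to 0.119, with DESeq2 (adjusted p = 0.0573) and at equal depth (adjusted p = 0.0927). The call of the double KO against the DHX36 KO was lost without any 1 of the DHX36 KO libraries or double KO replicate 1 or 2 (adjusted p of 0.0538 to 0.197), and that against the FANCJ KO without any 1 of the FANCJ KO libraries or double KO replicate 1 or 2 (adjusted p of 0.0803 to 0.193). Both were lost with DESeq2 (adjusted p = 0.0633 and 0.0745), in fits of the compared groups alone (0.0508 and 0.0583) and at equal depth (0.203 and 0.183).

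Rad50 (ENSMUSG00000020380, minus strand of chr11:53649519-53707319), which encodes the ATPase of the resection complex, stood at 42.3, 41.2 and 34.6 CPM in the double KO and 37.6, 38.0 and 27.8 CPM in the DHX36 KO. The FANCJ KO libraries held 33.4, 27.1 and 27.2 CPM and the WT libraries 41.8, 36.1 and 33.3 CPM. It was higher in the double KO than in the FANCJ KO (log2 fold change 0.42, SE 0.13, adjusted p = 0.0153), where the libraries did not overlap. That call was lost without FANCJ KO replicate 2 or 3 or double KO replicate 1 or 2 (adjusted p of 0.0515 to 0.0730) and at equal depth (adjusted p = 0.114). Nbn, the third partner, had log2 fold changes of -0.39 in the double KO (adjusted p = 0.0863), -0.41 in the DHX36 KO (adjusted p = 0.105) and -0.07 in the FANCJ KO, with the double KO and DHX36 KO libraries all below those of WT. Mre11a, the nuclease of the complex, was not called, at -0.25 in the double KO, -0.30 in the DHX36 KO and -0.08 in the FANCJ KO.

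Of the 4 mediators of recombination, Brca1 was called lower than WT in the double KO and the DHX36 KO, where 17.3% and 11.6% of all genes were lower. Brca2, Palb2 and Bard1 were not called in any comparison. Brca1 (ENSMUSG00000017146, minus strand of chr11:101488764-101551955) stood at 58.4, 61.2 and 63.4 CPM in the double KO and 55.8, 42.8 and 56.9 CPM in the DHX36 KO. It was at 58.4, 63.0 and 59.6 CPM in the FANCJ KO and at 76.8, 72.5 and 78.5 CPM in WT. Every knockout library was below every WT library, by at least the gap between 63.4 and 72.5 CPM. Brca1 was 1.45-fold lower in the DHX36 KO (log2 fold change -0.54, SE 0.10, adjusted p = 0.000557) and fell by 0.31 on the log2 scale in the double KO (SE 0.10, adjusted p = 0.0197). In the FANCJ KO its log2 fold change was -0.33 (SE 0.10, adjusted p = 0.116), and the double KO differed from the FANCJ KO by 0.01 (adjusted p = 0.928). The call in the double KO was lost without WT replicate 1 (adjusted p = 0.0533) or 3 (adjusted p = 0.0515) or without double KO replicate 1 (adjusted p = 0.0743) or 2 (adjusted p = 0.0506).

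Brca2, a mediator that binds single-stranded DNA, stood at 30.9, 29.7 and 30.2 CPM in the double KO and 26.8, 22.4 and 27.1 CPM in the DHX36 KO. FANCJ KO libraries stood at 25.1, 23.0 and 28.9 CPM, against 25.5, 25.8 and 26.2 CPM in WT. The double KO libraries were above all others, but the log2 fold change of 0.23 against WT was not called (adjusted p = 0.135). Palb2, the bridge between BRCA1 and BRCA2, lay within 0.03 of WT on the log2 scale in all 3 knockout genotypes. Bard1, the partner of BRCA1 in its own ubiquitin ligase, was at -0.18 in the double KO, -0.28 in the DHX36 KO and -0.23 in the FANCJ KO.

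Rad51b, Rad51c, Rad51d, Xrcc2 and Xrcc3, whose products work in recombination after resection, showed no called change. None of the 5 was called in any of the 6 comparisons by edgeR or DESeq2. Of all genes, edgeR called from 2.07% in the FANCJ KO against WT to 36.8% in the double KO against the FANCJ KO. The count of the 5 at an unadjusted p under 0.05 was 1 in the double KO against WT and 0 in the others. That 1 was Rad51d, at 11.2, 9.17 and 7.84 CPM in the double KO and 12.6, 12.4 and 13.8 CPM in WT (log2 fold change -0.45, adjusted p = 0.0676). Xrcc2 spread widely within genotypes, with 9.37 to 24.6 CPM among the WT libraries alone. Rad51b and Xrcc3 had mean levels under 4 CPM in every genotype, and their SE against WT was 0.30 to 0.34.

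Rad54b (ENSMUSG00000078773, plus strand of chr4:11558922-11615805) encodes a motor protein that moves along DNA during recombination. It stood at 19.8, 18.3 and 16.3 CPM in the double KO and 13.7, 13.9 and 12.3 CPM in the DHX36 KO. Its level was 10.8, 12.2 and 12.8 CPM in the FANCJ KO and 13.9, 11.3 and 10.8 CPM in WT. The double KO libraries were above all others, and the other genotypes overlapped. Rad54b was 1.51-fold higher in the double KO than in WT (log2 fold change 0.60, SE 0.15, adjusted p = 0.00305), with 0.61 against the FANCJ KO (SE 0.14, adjusted p = 0.00148) and 0.46 against the DHX36 KO (SE 0.13, adjusted p = 0.0173). The last call was lost without DHX36 KO replicate 3 (adjusted p = 0.0848) or double KO replicate 1 (adjusted p = 0.0921) or 2 (adjusted p = 0.0507) and at equal depth (adjusted p = 0.0561). Rad54b shares exon bases on its own strand with Fsbp, 30061 bases from its 3′ end, so reads there could be split between them. Its relative Rad54l, the main RAD54 of mouse cells, lay between -0.10 and 0.03 against WT in the knockout genotypes.

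Hmces (ENSMUSG00000030060, plus strand of chr6:87913935-87936629) encodes a protein that shields abasic sites in single-stranded DNA by binding them covalently. It stood at 44.6, 41.4 and 47.2 CPM in the double KO and 77.0, 97.9 and 64.2 CPM in the DHX36 KO. The FANCJ KO libraries held 44.9, 52.1 and 37.5 CPM and the WT libraries 68.2, 98.6 and 64.9 CPM. All libraries without FANCJ were below all libraries with it. Its log2 fold change was -0.78 (SE 0.16, adjusted p = 0.0113) in the FANCJ KO against WT and -0.84 (SE 0.15, adjusted p = 0.000336) in the double KO against the DHX36 KO. The DHX36 KO was near WT (0.03, adjusted p = 0.923) and the double KO near the FANCJ KO (-0.03, adjusted p = 0.915), and the double KO was at -0.81 against WT (SE 0.15, adjusted p = 0.000313). WT replicate 2 was the highest of all libraries, and without it the FANCJ KO was at -0.55 (adjusted p = 0.103). That call was lost as well without FANCJ KO replicate 1 (adjusted p = 0.0559) or 3 (adjusted p = 0.0577).

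**Figure D3:**
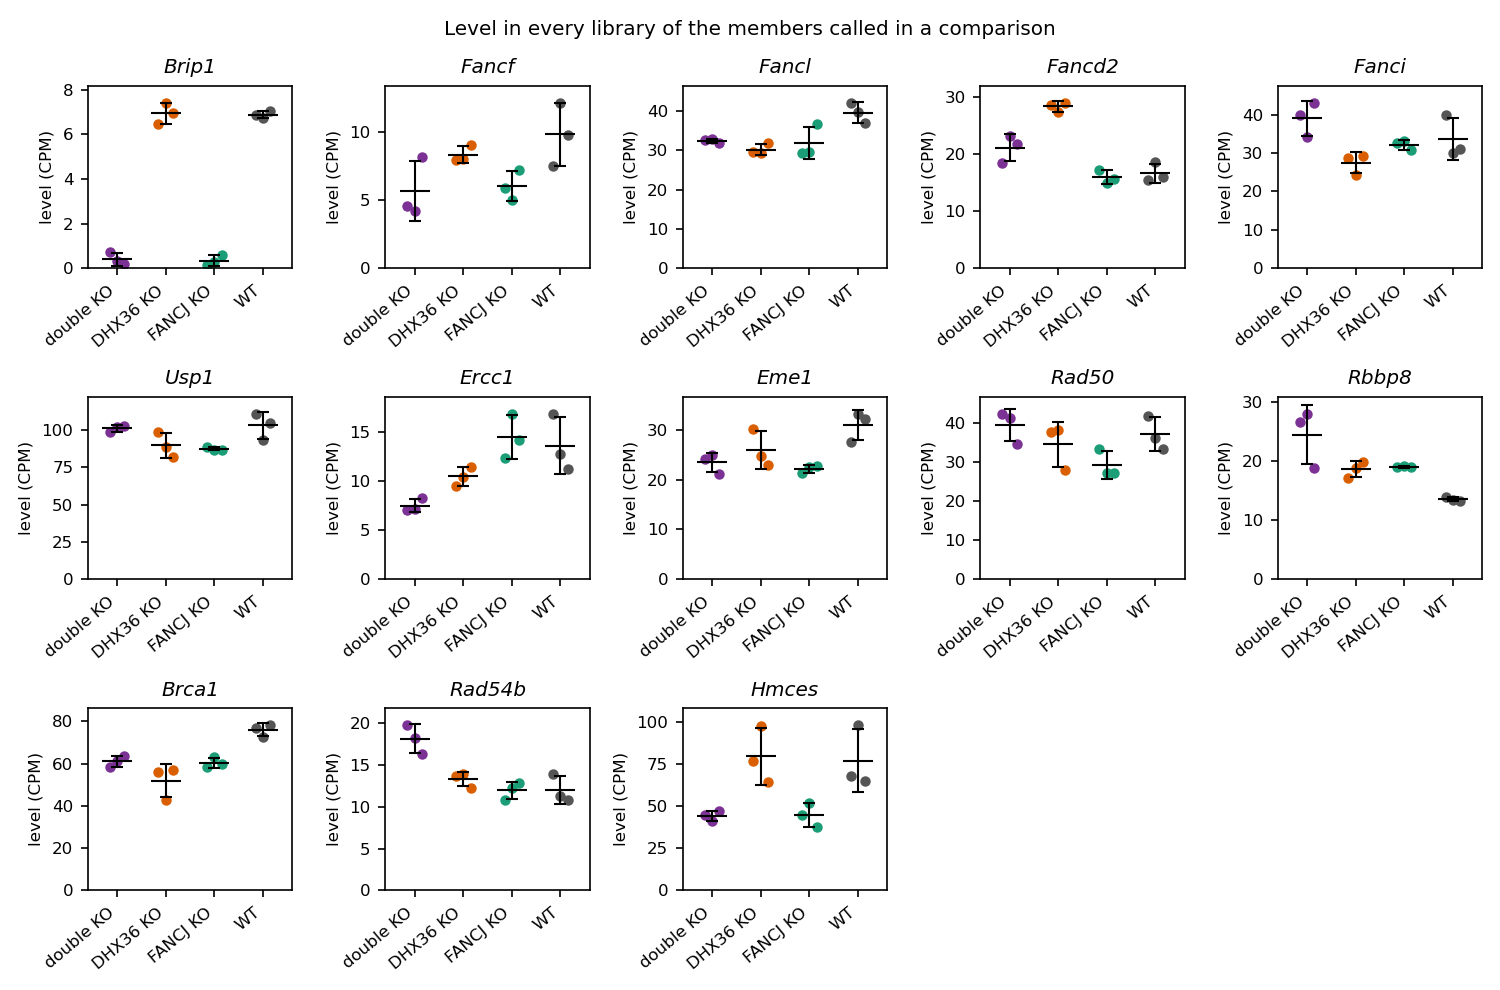
Level in CPM of the 13 members called in at least 1 comparison, with 1 point per library and bars for the mean and SD of the 3 libraries, for the double KO, the DHX36 KO, the FANCJ KO and WT from left to right. Brip1 and Hmces are low in the genotypes without FANCJ, Fancd2 is highest in the DHX36 KO at 27.3 to 29.0 CPM, and Rbbp8 is lowest and Brca1 highest in WT.

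The design allows each loss to be measured with and without the other helicase, in pairs of comparisons that share no library. For DHX36 loss, Fancd2 and Rbbp8 were called higher both without FANCJ (double KO against FANCJ KO) and with it (DHX36 KO against WT). For FANCJ loss, Hmces was called lower both without DHX36 (double KO against DHX36 KO) and with it (FANCJ KO against WT). For DHX36 loss, called without FANCJ only were Ercc1, lower, and Rad50 and Rad54b, higher, whereas Fancl and Brca1 were called lower with FANCJ only. For FANCJ loss, called without DHX36 only were Fancd2 and Ercc1, lower, and Fanci, Rbbp8 and Rad54b, higher. These lists do not show a difference between the backgrounds, which the interaction tests.

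Of the 32 members, 5 were called in the double KO against the FANCJ KO (15.6%), against 36.8% of all genes, with 4 higher and 1 lower beside 18.3% and 18.5% of all genes. In the double KO against the DHX36 KO 6 were called (18.8%), against 19.7% of all genes, with 3 higher and 3 lower beside 8.28% and 11.4% of all genes. Libraries did not overlap for 7 members against the FANCJ KO, where 48.7% of all genes did not overlap, and for 10 against the DHX36 KO, where 36.9% did not. The DHX36 effects without and with FANCJ had the same sign in 13 of the 32 members (40.6%), against 70.2% of all genes, with a Pearson r across genes of 0.31 for the members and 0.58 for all genes. The FANCJ effects without and with DHX36 had the same sign in 12 of the 32 members (37.5%), against 53.2% of all genes, with r of 0.32 and 0.15. These shares and correlations describe genes of the same libraries, which are not independent replicates, and most members lay near 0. In the FANCJ pair Hmces had the lowest value in both, at -0.84 without DHX36 and -0.78 with it, and r without Hmces was not computed.

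**Figure D4:**
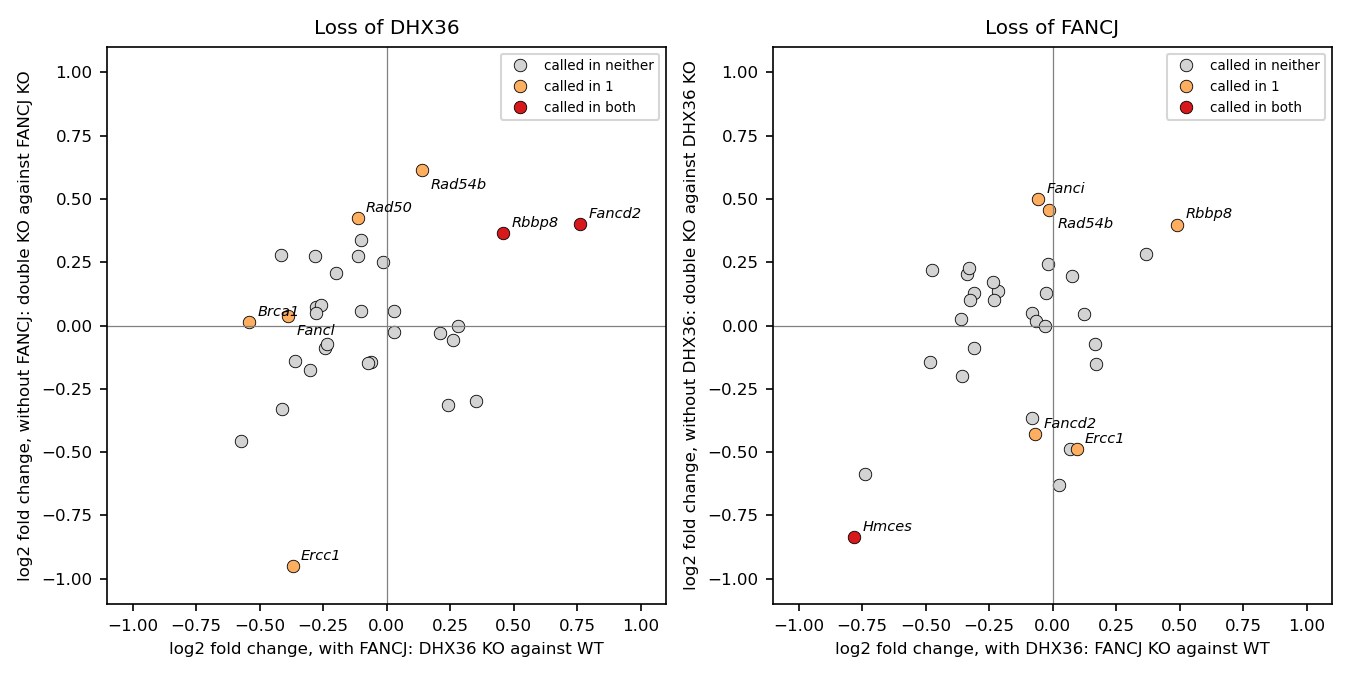
Log2 fold changes of the 32 members on loss of DHX36 (left) and of FANCJ (right), with the other helicase present on the horizontal axis and absent on the vertical axis. Fancd2 and Rbbp8 at the left and Hmces at the right are called on both axes (red), members called on 1 axis are orange, and the others are grey.

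The interaction, taken as the FANCJ effect in cells without DHX36 less the FANCJ effect in cells that have it, was called for 2 of the 32 members (6.25%), against 8.79% of all genes, both of them above 0, where 2.73% of all genes were called above and 6.06% below 0. Brca1 had an interaction of 0.55 (SE 0.14, adjusted p = 0.0169): FANCJ loss came with a log2 fold change of 0.23 without DHX36 and -0.33 with it. Usp1 had an interaction of 0.41 (SE 0.13, adjusted p = 0.0492), from 0.17 without DHX36 and -0.23 with it, and this call was lost in 13 of 17 alternatives. For both genes the double KO lay nearer to WT than the sum of the separate losses would place it. Fanci had an interaction of 0.56 (SE 0.18, adjusted p = 0.0538), Rad50 of 0.54 (SE 0.19, adjusted p = 0.0876) and Fancl of 0.43 (SE 0.15, adjusted p = 0.0919), none of them called. Without the expression filter those of Fanci (adjusted p = 0.0407) and Rad50 (adjusted p = 0.0462) were called. That of Fanci was also called without WT replicate 2 (adjusted p = 0.0378) or double KO replicate 2 (adjusted p = 0.0338), and that of Fancl without FANCJ KO replicate 3 (adjusted p = 0.0383). The median interaction of the 32 members was 0.15, with 21 of them above 0.

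Added up, the 33 members other than Brip1 held 739, 731 and 736 CPM in the double KO and 718, 766 and 709 CPM in the DHX36 KO. Together they were at 696, 696 and 660 CPM in the FANCJ KO and at 819, 799.6 and 769.6 CPM in WT. Every knockout library was below every WT library. Changes of single genes are given as shares of the net drop, in which members that rose offset those that fell. In the double KO, Hmces came to 54.0% and Brca1 to 24.5% of it, with Rbbp8, the largest rise, at -18.0%. In the DHX36 KO, Brca1 came to 37.0% and Usp1 to 20.4%, with Fancd2, the largest rise, at -17.9%. The FANCJ KO had Hmces at 28.9%, and Usp1 and Brca1 at 13.9% each. By role, the summed nucleases and their scaffold averaged 59.7 ± 2.84 CPM in the double KO, 64.7 ± 3.54 CPM in the DHX36 KO, 66.2 ± 2.15 CPM in the FANCJ KO and 75.0 ± 4.51 CPM in WT. The mediators of the BRCA group averaged 156 ± 3.67 CPM in the double KO, 139.6 ± 6.17 CPM in the DHX36 KO, 148 ± 8.71 CPM in the FANCJ KO and 173 ± 9.68 CPM in WT, and for both roles the knockout libraries were all below those of WT. The sums are descriptions and weigh each gene by its level.

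**Figure D5:**
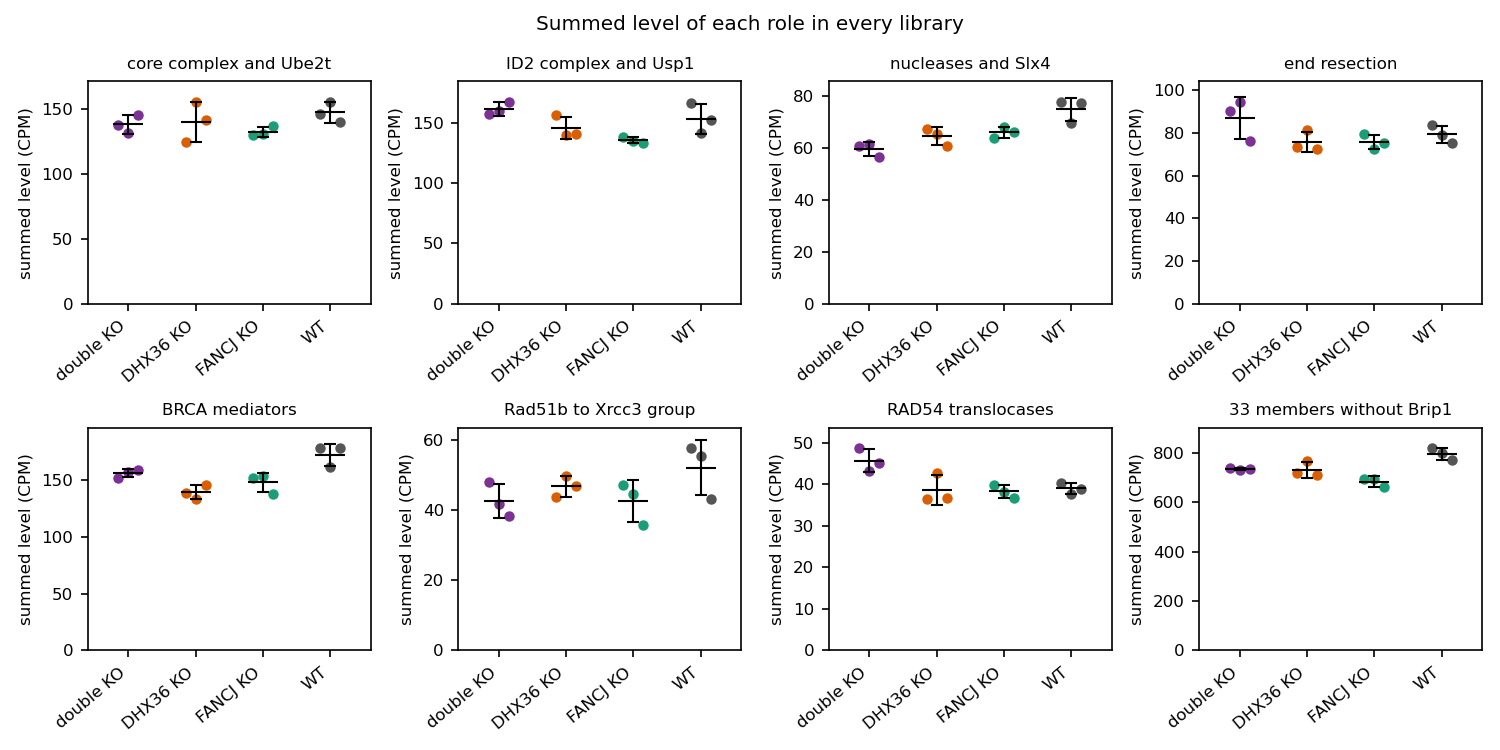
Summed level in CPM of each role with more than 1 gene, and of the 33 members other than Brip1, in every library. Bars give the mean and SD of the 3 libraries of the double KO, the DHX36 KO, the FANCJ KO and WT from left to right. Hmces has no panel of its own and is part of the sum of 33. The nucleases, the BRCA mediators and the sum of 33 members are highest in WT, and the RAD54 pair is highest in the double KO, at 43.2 to 48.6 CPM.

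A wider list of Fanconi, checkpoint and recombination genes outside the 34 had 55 tested genes. In the double KO against WT 9 of them rose and 3 fell, where 33.9% of all genes were called, and their median log2 fold change was 0.15. In the DHX36 KO 6 rose and 2 fell, where 24.4% of all genes were called, and the median was 0.07. In the FANCJ KO none was called by edgeR or DESeq2, where 2.07% of all genes were called by edgeR, with 5 at an unadjusted p under 0.05 and a median of -0.08. Rad51ap1, a recombination factor gene, stood at 20.8, 21.3 and 20.9 CPM in the double KO and 36.9, 43.7 and 38.4 CPM in the DHX36 KO. FANCJ KO libraries stood at 20.1, 20.9 and 25.2 CPM, against 26.3, 22.8 and 22.0 CPM in WT. Like Fancd2, it was highest in all 3 DHX36 KO libraries, with a log2 fold change of 0.74 against WT (SE 0.12, adjusted p = 0.000112), and its interaction was -0.79 (SE 0.17, adjusted p = 0.00422), where that of Fancd2 was -0.36 (SE 0.18, adjusted p = 0.250).

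Rad52, which anneals single strands, averaged 13.7 ± 0.443 CPM in the double KO, 22.6 ± 2.27 CPM in the DHX36 KO, 10.6 ± 1.19 CPM in the FANCJ KO and 12 ± 3.86 CPM in WT. Its log2 fold change in the DHX36 KO was 0.89 (SE 0.17, adjusted p = 0.000654). Atr, the kinase that answers to stalled forks, averaged 16.7 ± 2.67 CPM in the double KO, 13.9 ± 0.947 CPM in the DHX36 KO, 8.67 ± 1.48 CPM in the FANCJ KO and 8.40 ± 1.52 CPM in WT. It was called higher without DHX36 in both backgrounds, at 0.98 against the FANCJ KO (adjusted p = 8.18e-05) and 0.72 against WT (adjusted p = 0.00678). In the double KO against WT, Atm, the kinase that answers to breaks, rose by 0.92 (adjusted p = 0.00269), Dmc1, a gene of meiotic recombination, rose by 0.65 (adjusted p = 0.0116), and the helicase gene Wrn fell by 0.72 (adjusted p = 0.0161).

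Other gene groups moved between the same libraries, and their part in the results above was not tested. Their counts stand beside 33.9% of all genes called in the double KO against WT, 24.4% in the DHX36 KO and 2.07% in the FANCJ KO. S-phase genes summed to 4410 to 4992 CPM in the double KO, 4823 to 5270 CPM in the DHX36 KO, 5085 to 5283 CPM in the FANCJ KO and 5233 to 5691 CPM in WT, with 1 of 26 higher and 5 lower in the double KO, 2 higher and 4 lower in the DHX36 KO and 1 lower in the FANCJ KO. G2 and mitosis genes summed to 4315 to 4411 CPM in the double KO, 4013 to 4133 CPM in the DHX36 KO, 4017 to 4085 CPM in the FANCJ KO and 4140 to 4171 CPM in WT, with 5 of 22 higher and 1 lower in the double KO and 3 lower in the DHX36 KO. Of 29 p53 targets, 7 were higher and 7 lower in the double KO, 6 higher and 5 lower in the DHX36 KO and 8 higher in the FANCJ KO. Pluripotent cell markers summed to 7149 to 7270 CPM in the double KO, 6085 to 6462 CPM in the DHX36 KO, 5154 to 5505 CPM in the FANCJ KO and 5755 to 5923 CPM in WT, with 8 of 14 higher and 2 lower in the double KO, 3 higher and 2 lower in the DHX36 KO and 1 lower in the FANCJ KO. Primitive endoderm markers summed to 601 to 645 CPM in the double KO, 617 to 640 CPM in the DHX36 KO, 879 to 908 CPM in the FANCJ KO and 640 to 765 CPM in WT, with 5 of 15 higher and 3 lower in the double KO, 3 higher and 4 lower in the DHX36 KO and 8 higher in the FANCJ KO. Fibroblast markers summed to 331 to 345 CPM in the double KO, 623 to 653 CPM in the DHX36 KO, 1239 to 1297 CPM in the FANCJ KO and 903 to 1093 CPM in WT, with 1 of 11 higher and 7 lower in the double KO, 2 higher and 3 lower in the DHX36 KO and 2 higher in the FANCJ KO. No marker of these cell type lists was at 0 in all libraries of a genotype.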

How the data were processed

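Total RNA of the 12 libraries was prepared by a method like CEL-Seq2, which tags 3′ ends, per the labels' protocols. The authors deposited unnormalised counts of each gene, all whole numbers. The submitters' processing notes name BWA, GRCm38 and hg38, without roles. The handling of molecular identifiers, strand and reads with several alignments is not given in the sources used here. The 92 spike-in transcripts were left out.

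Counts were tested with edgeR 4.0.16 (limma 3.58.1, R 4.3.3): trimmed-mean normalisation, the default expression filter by genotype, 1 quasi-likelihood model of all 12 libraries with genotype as its only term, and two-sided F tests with Benjamini-Hochberg adjustment over 12765 genes at a threshold of 0.05. SE is the log2 fold change over the square root of F. CPM were computed from the deposited counts. Scripts were tested on simulated data. Coordinates come from GENCODE M21 and promoters from RefSeq. Counts of replicates differed beyond sampling noise, so no library was a copy of another of its genotype. Whether replicates were separate preparations of the same RNA cannot be told from this.

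Members and lists were chosen with earlier results of these data known. Values in every library are given for members called in any comparison, and of other lists for up to 4 called genes with the largest change. Brca2, Fancc, Rad51d and the partner genes at 3′ ends were named after their values were seen. Alternatives were DESeq2 1.42.0, its size factors, no filter, only the groups compared, a replicate block, thinned libraries, longer motif loops and leaving out each library.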

Additional observations from a re-analysis of the deposited data

Results flagged for a closer look

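In 2 members the effect of FANCJ loss differed between cells without and with DHX36 by the interaction test of edgeR's model. Brca1 had an interaction of 0.55 on the log2 scale (SE 0.14, adjusted p = 0.0169). Its mean was 61.0 ± 2.53 CPM in the double KO and 51.8 ± 7.84 CPM in the DHX36 KO, against 60.3 ± 2.40 CPM in the FANCJ KO and 75.9 ± 3.09 CPM in WT (SD, n = 3 each). The call for Brca1 was kept in all 17 alternatives, with values from 0.44 to 0.63 and adjusted p from 0.00959 to 0.0493. Usp1 had an interaction of 0.41 (SE 0.13, adjusted p = 0.0492), with means of 101 ± 2.20 CPM in the double KO and 89.7 ± 8.40 CPM in the DHX36 KO, against 87.4 ± 1.12 CPM in the FANCJ KO and 103 ± 9.04 CPM in WT. The call for Usp1 was lost in 13 of 17 alternatives, among them leaving out WT replicate 1 (adjusted p = 0.126) or DHX36 KO replicate 3 (adjusted p = 0.133).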

How the results depend on the processing

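Of 29 calls of members in the 6 comparisons, 14 were kept in every alternative run and 15 were lost in at least 1, and no called value changed sign. Kept throughout were Brip1 in 3 comparisons, Fancd2 and Brca1 in the DHX36 KO, Ercc1, Rbbp8, Rad54b and Hmces in the double KO against WT, Ercc1 and Rad54b in the double KO against the FANCJ KO, Fanci and Hmces in the double KO against the DHX36 KO, and the interaction of Brca1. With DESeq2's size factors 1 member kept an interaction call. Without the expression filter 418 genes were called in the FANCJ KO against WT, and 159 when those groups alone were fitted. In thinned libraries 3 members were called in the double KO against the DHX36 KO and 3 against the FANCJ KO. With loops up to 12 bases 8 member promoters held the motif. The cause of these changes was not tested.

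Leaving out 1 library at a time, calls over all genes ranged from 3498 to 3940 in the double KO against WT, 2503 to 2700 in the DHX36 KO, 110 to 198 in the FANCJ KO, 1789 to 2115 in the double KO against the DHX36 KO, 3869 to 4206 against the FANCJ KO and 880 to 1071 for the interaction. With all libraries they were 4331, 3113, 264, 2512, 4697 and 1122 in the same order, so every omission gave fewer calls. Whether a member call lost in this way depended on the library left out or on the smaller number of libraries was not tested. Calls of members, Brip1 included, ranged in the same order over 6 to 9, 2 to 6, 1 to 2, 3 to 9, 2 to 5 and 1 to 3, and those of the wider pathway list over 9 to 14, 6 to 10, 0 to 1, 8 to 12, 10 to 12 and 1 to 4.

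Replicate numbers did not pair the libraries: the 18 correlations of same-numbered libraries ran from -0.07 to 0.05. With the replicate number as a block, 4264 genes and 8 members were called in the double KO against WT, 3004 and 4 in the DHX36 KO, 233 and 2 in the FANCJ KO, 2387 and 5 in the double KO against the DHX36 KO, 4581 and 5 against the FANCJ KO, and 1039 and 3 for the interaction. Under the block Fancl in the double KO against WT (adjusted p = 0.0544), Ercc1 (0.0616) and Rbbp8 (0.0569) in the double KO against the DHX36 KO and the interaction of Usp1 (0.0588) were not called, while the interactions of Rad50 (0.0365) and Fanci (0.0489) were. Depth limits Fan1, which was not tested, and the members with few counts, Mus81, Fancc, Rad51b and Xrcc3, whose SE against WT was 0.30 to 0.35.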
